A study of Mus musculus with 2 samples.

Results

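The transcripts of 9 mouse genes for the engulfment of apoptotic cells were measured in single cells sorted from the brain. These genes are Mertk, Axl, Gas6, Pros1, Cd36, Msr1, Cd68, Sirpa and Cd47. They were picked by symbol out of the 32285 genes counted, and all 9 were found. Each genotype was represented by 1 library, made from the pooled brains of 6 males of 23 weeks. The Disc1 LI/LI animals had both copies of Disc1 disrupted by the locus impairment, and Disc1 WT/WT littermates served as controls. Tissue was dissociated in the presence of actinomycin D, which blocks new transcription, and cells low in CD45 and positive for CD11b were sorted into a droplet assay that counts transcripts from their 3′ end by unique molecular identifiers (UMIs). No test between genotypes was possible with 1 library each. All intervals are exact 95% intervals for counting error only, and the spread between mice is unknown.

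Dying cells expose phosphatidylserine, and phagocytes read it either directly or through a soluble bridge. Gas6 and Pros1 (protein S) are such bridges, and they bind the TAM receptor tyrosine kinases, of which Mertk and Axl are members. Cd36 and Msr1 are scavenger receptors that bind modified lipoproteins and apoptotic cells, and Cd68 is a heavily glycosylated protein of the lysosomal membrane. Cd47 works in the opposite direction, since it engages Sirpa on the phagocyte and restrains engulfment. In the brain, microglia use Mertk in the removal of apoptotic cells, while Axl is known as a receptor that rises in inflamed tissue.

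In the set of RefSeq promoters used here (GRCm38.p6), 7 of the 9 genes had an entry, all but Msr1 and Sirpa. The 250 bases before the start site are shown for Mertk (chr2:128698665-128698914, plus strand) and Axl (chr7:25788734-25788983, minus strand). These related receptors were highest in different cells below. Cd68 (chr11:69666171-69666420, minus strand), the member with a higher level in Disc1 LI/LI microglia, is shown too. Capitals mark matches, on either strand, to the AP-1 site TGAGTCA, the PU.1-type ETS site GAGGAAG, the E-box CACGTG or the GC box CCGCCC, and no 2 matches overlapped.
Mertk: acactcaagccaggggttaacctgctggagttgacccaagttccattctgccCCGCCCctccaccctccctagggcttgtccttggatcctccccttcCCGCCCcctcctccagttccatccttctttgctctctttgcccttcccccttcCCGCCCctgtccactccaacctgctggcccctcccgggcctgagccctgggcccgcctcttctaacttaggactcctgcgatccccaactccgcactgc
Axl: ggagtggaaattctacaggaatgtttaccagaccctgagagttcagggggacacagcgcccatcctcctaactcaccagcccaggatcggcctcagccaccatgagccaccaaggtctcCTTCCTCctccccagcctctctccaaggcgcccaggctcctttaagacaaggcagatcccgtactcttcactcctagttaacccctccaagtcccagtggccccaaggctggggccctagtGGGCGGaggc
Cd68: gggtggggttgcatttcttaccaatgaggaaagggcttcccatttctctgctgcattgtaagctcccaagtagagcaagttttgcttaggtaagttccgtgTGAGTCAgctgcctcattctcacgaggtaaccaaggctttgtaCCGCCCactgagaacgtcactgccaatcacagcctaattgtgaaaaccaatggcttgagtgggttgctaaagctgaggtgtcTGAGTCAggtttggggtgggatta
The AP-1 letters occurred in 1 of the 7 members searched, Cd68, at 149 and 24 bases before the start site, against 4.46% of 32851 promoters of the same length. The ETS letters were found in Axl alone, 131 bases before the start, and in 10.6% of all promoters. All 7 members held a GC box, as did 32.7% of all promoters. No member matched the E-box, which 6.02% of promoters held. These are matches of letters and not sites of binding.

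The Disc1 WT/WT library held 33601957 UMIs over 7038 barcodes, and the Disc1 LI/LI library 47731571 UMIs over 7834 barcodes, of which 7032 and 7817 were left after dropping those under 200 genes or over 10% mitochondrial UMIs. Levels are UMIs of a gene per 1000000 UMIs of the same cells (CPM). Disc1 itself stood at 19.1 CPM in Disc1 WT/WT against 0.461 in Disc1 LI/LI. Only 12 barcodes were shared between the libraries. Microglia were taken as cells in which 6 microglial genes made up at least 0.5% of UMIs with under 1% from S100a8 and S100a9, and neutrophils as cells with at least 3% from the latter pair. Although both libraries are labelled as microglia, this gave 6180 microglia (87.9%), 116 neutrophils and 736 other cells in Disc1 WT/WT, and 1950 microglia (24.9%), 3622 neutrophils (46.3%) and 2245 other cells in Disc1 LI/LI. Microglia held UMIs of a median of 12 of 12 microglial markers in Disc1 WT/WT against 11 in Disc1 LI/LI. The 6 genes of the gate are among these 12 markers, so this count follows in part from the gate. The medians of UMIs per microglial cell were 4271 and 3788, and those per neutrophil 4844 and 4194.

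Because the 2 libraries hold such different cells, the level of each class's own markers in the other class was measured beside the members. The 6 microglial genes, summed, stood in neutrophils at 17.2% of their microglial level in Disc1 WT/WT against 3.07% in Disc1 LI/LI. Over the full list of 12 microglial markers, the level in neutrophils ranged from 15.3% to 26.8% of the microglial level in Disc1 WT/WT, with a median of 18.6%, and from 2.83% to 4.96% in Disc1 LI/LI, with a median of 3.43%. In the other direction, the median of 12 neutrophil markers in microglia was 0.0197% of the neutrophil level in Disc1 WT/WT against 0.756% in Disc1 LI/LI. The level of each member in neutrophils is therefore given beside the proportion of the microglial genes. The source of microglial transcripts in neutrophils was not tested. Shares of cells with a UMI are given in the same way, with the neutrophil share beside the microglial one.

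**Figure D1:**
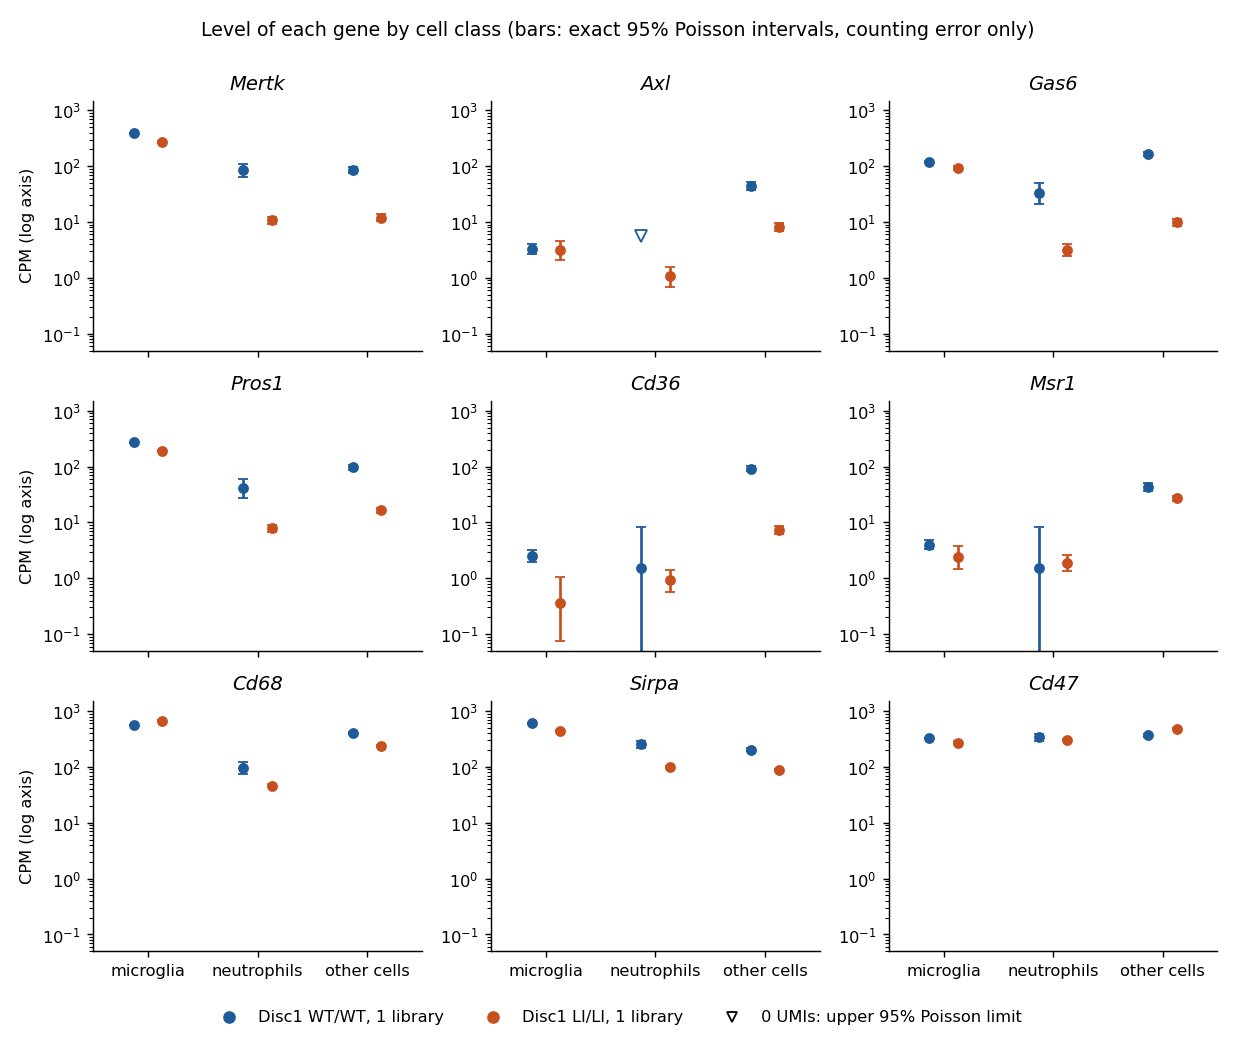
CPM (log axis) of each of the 9 genes in microglia, neutrophils and other cells, with blue points for the Disc1 WT/WT library and orange points for the Disc1 LI/LI library. Bars are exact 95% Poisson intervals and the open triangle is the upper limit for 0 UMIs. Mertk, Pros1 and Sirpa were highest in microglia of both libraries, Axl, Cd36 and Msr1 were highest in other cells, and Cd47 was at a like level in all.

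Of the TAM receptors, Mertk was highest in microglia in both libraries. It stood at 391 CPM (384 to 398) in Disc1 WT/WT microglia and at 277 (265 to 288) in Disc1 LI/LI microglia. A UMI of Mertk was found in 76.0% and 62.7% of microglia, against 14.7% and 3.51% of neutrophils. With every cell thinned to 1000 UMIs, the microglial shares were 31.1% and 24.1%. Microglia held 96.9% of all Mertk UMIs in Disc1 WT/WT against 83.5% in Disc1 LI/LI. The level in neutrophils was 85.4 in Disc1 WT/WT, where the proportion of the microglial genes gives 67.4, inside the interval of 64.7 to 111. In Disc1 LI/LI neutrophils it was 10.7, above the 8.48 of that proportion. As 3.87% of the microglial level, it lay inside the 2.83% to 4.96% spanned by the 12 microglial markers. Classical monocyte-marker cells had 15.0 and 5.35 CPM, far under microglia in each library. Border macrophage-marker cells had 136 (103 to 177) in Disc1 WT/WT, under microglia, and 232 (133 to 377) in Disc1 LI/LI. The latter rested on 16 UMIs in 18 cells. Its log2 ratio over microglia was -0.25 (-1.06 to 0.45), so it is not shown to be lower. The gene (ENSMUSG00000014361, chr2:128698956-128802894, plus strand, GRCm38) overlaps Gm14011 and Gm23172, the latter on the same strand.

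Axl stood lower in microglia than in the other cells of each library. Disc1 WT/WT microglia held 98 UMIs of Axl, 3.33 CPM (2.71 to 4.06), and Disc1 LI/LI microglia 26, or 3.18 CPM. Only 1.39% and 1.08% of microglia had a UMI, and 35.7% of the Disc1 WT/WT microglial UMIs lay in 278 microglia-gated cells that also carried at least 3 markers of another cell type, neutrophil markers not counted. In Disc1 LI/LI, 50% of the 26 UMIs lay in 103 such cells. With neutrophil markers counted, 324 of the Disc1 WT/WT microglia (5.24%) and 1552 of the Disc1 LI/LI microglia (79.6%) carried 3 markers of another list. Other cells stood at 44.1 CPM in Disc1 WT/WT against 8.20 in Disc1 LI/LI. Neutrophils held 0 UMIs in Disc1 WT/WT, where 3 UMIs would be 4.50 CPM, and 1.07 CPM in Disc1 LI/LI. Axl (ENSMUSG00000002602) lies at chr7:25757273-25788705 on the minus strand.

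To find where the members lay among the other cells, those cells were split by cell type markers. Each cell was put with the list of which it held the most markers, at least 3, so the groups are ranges of a marker count rather than isolated types. In Disc1 WT/WT, 19 of the 736 other cells sat exactly at 3 markers, 29 held 2 and 30 were tied between lists. In Disc1 LI/LI these numbers were 38, 48 and 104 of 2245. The groups were unevenly filled. Border macrophage-marker cells (Mrc1, Pf4, Lyve1 and others, known from meninges and perivascular spaces) numbered 112 in Disc1 WT/WT against 18 in Disc1 LI/LI. Classical monocyte-marker cells (Ly6c2, Ccr2 and others) numbered 43 and 1264, nonclassical monocyte-marker cells (Ace, Treml4 and others) 38 and 84, and MHC class II-marker cells 228 and 221.

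**Figure D2:**
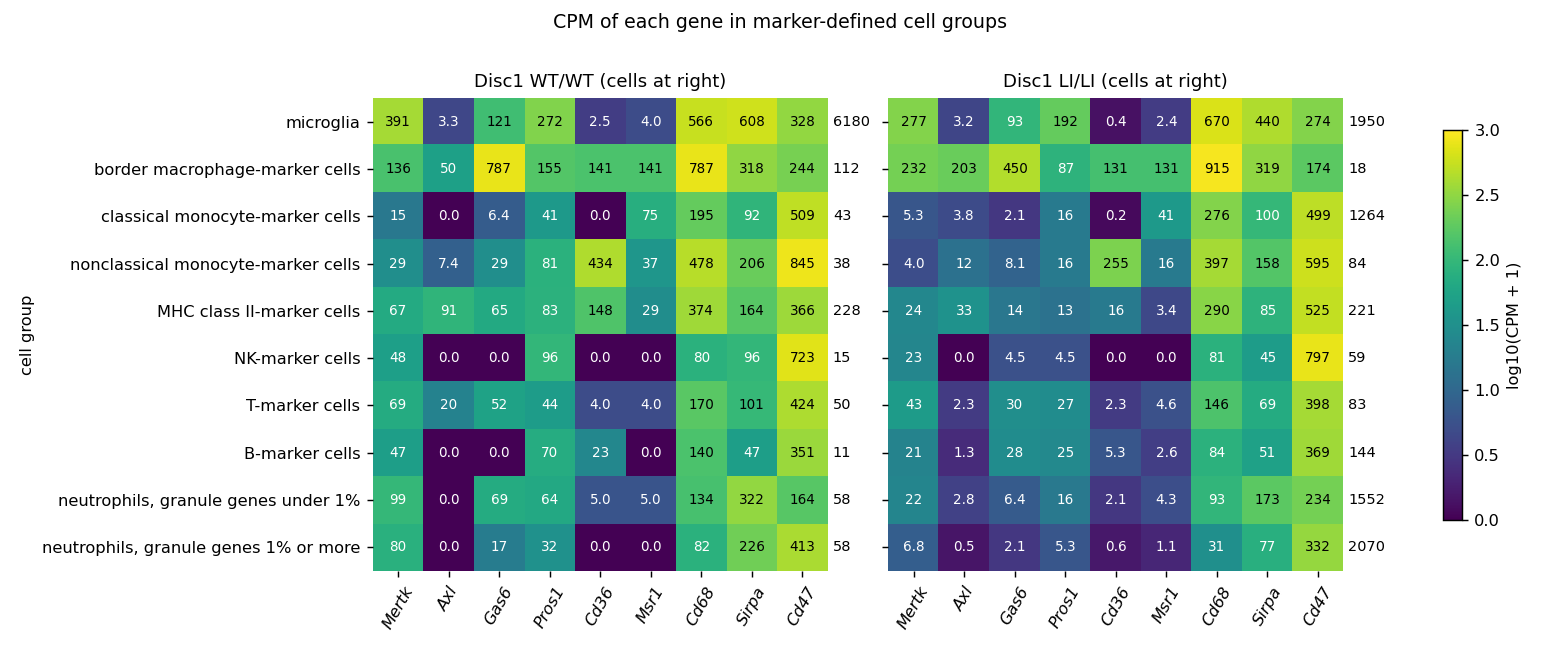
CPM of the 9 genes (columns) in cell groups (rows) of Disc1 WT/WT (left) and Disc1 LI/LI (right). Each cell of the map prints its level, the colour is log10(CPM + 1), and the number of cells stands at the right. Gas6 peaked in border macrophage-marker cells (787 and 450), Cd36 in nonclassical monocyte-marker cells (434 and 255), and Cd47 lay at 164 or more in every group drawn here.

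Axl was highest in MHC class II-marker cells of Disc1 WT/WT, at 91.3 CPM (75.1 to 110), followed by border macrophage-marker cells at 50.2 (31.1 to 76.8). These 2 intervals overlap. In Disc1 LI/LI the order was the reverse, with 32.7 (24.8 to 42.4) in MHC class II-marker cells and 203 (111 to 341) in 18 border macrophage-marker cells. The latter rested on 14 UMIs in 5 cells, with 10 of the UMIs in 1 cell. Its interval takes no account of this, and the order hangs largely on that cell. Both groups lay above microglia in each library. Classical monocyte-marker cells held 0 UMIs of Axl in Disc1 WT/WT and 3.85 CPM in Disc1 LI/LI.

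Both bridging ligands were transcribed by microglia, and Gas6 also by border macrophage-marker cells. Gas6 stood at 121 CPM in Disc1 WT/WT microglia and 93.4 in Disc1 LI/LI microglia, with a UMI in 39.4% and 28.6% of them, against 9.48% and 1.66% of neutrophils. Border macrophage-marker cells had 787 (704 to 877) and 450 (306 to 639). This was 6.51-fold over microglia in Disc1 WT/WT (log2 ratio 2.70, 2.54 to 2.87) and 4.82-fold in Disc1 LI/LI (2.27, 1.70 to 2.79). A UMI of Gas6 was seen in 83.0% of the 112 border macrophage-marker cells of Disc1 WT/WT. In neutrophils, Gas6 stood at 33.0 (20.7 to 49.9) and 3.15 (2.45 to 4.00). The microglial genes' proportion gives 20.8 and 2.86, within the interval in both libraries but near its lower end in Disc1 WT/WT. Gas6 (ENSMUSG00000031451, chr8:13465374-13494490, minus strand) overlaps Tmem255b on the opposite strand.

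Pros1 was carried by microglia at 272 CPM in Disc1 WT/WT against 192 in Disc1 LI/LI, with a UMI in 67.1% and 50.9% of cells. Unlike Gas6, it was lower in border macrophage-marker cells, at 155 (120 to 198) and 87.1 (32.0 to 190). In neutrophils the level was 42.0 in Disc1 WT/WT, where the proportion gives 46.9, and 7.83 in Disc1 LI/LI, where it gives 5.90. The Disc1 LI/LI value was 4.07% of the microglial level, also inside the range of the 12 microglial markers (2.83% to 4.96%). Classical monocyte-marker cells had 40.6 and 15.7. Pros1 (ENSMUSG00000022912) spans chr16:62854307-62929346 on the plus strand. Microglia held 95.6% of the Pros1 UMIs in Disc1 WT/WT against 77.2% in Disc1 LI/LI.

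The scavenger receptors Cd36 and Msr1 were scarce in microglia. Cd36 gave 74 UMIs in 39 of 6180 Disc1 WT/WT microglia, 2.52 CPM, and 3 UMIs in 3 of 1950 Disc1 LI/LI microglia, 0.367 CPM. Of the 74 UMIs, 63 (85.1%) lay in the 278 microglia-gated cells with at least 3 markers of a type other than microglia and neutrophils. Of the 3 Disc1 LI/LI UMIs, 2 lay in 103 such cells. Without those cells, Cd36 stood at 0.398 and 0.134 CPM. The 9 border macrophage markers, all detected, summed to 123 CPM in Disc1 WT/WT microglia against 43.9 in Disc1 LI/LI microglia, and their part in the Cd36 difference was not tested. Its highest level was in nonclassical monocyte-marker cells, with 434 (330 to 559) in Disc1 WT/WT against 255 (196 to 327) in Disc1 LI/LI, and 50% and 48.8% of these cells held a UMI. Classical monocyte-marker cells, by contrast, held 0 UMIs in 43 cells and 2 UMIs in 1264 cells. Border macrophage-marker cells had 141 and 131, with overlapping intervals. Cd36 (ENSMUSG00000002944) lies at chr5:17781690-17888801 on the minus strand.

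Msr1 was likewise low in microglia, at 3.98 CPM in Disc1 WT/WT (117 UMIs) against 2.45 in Disc1 LI/LI (20 UMIs). It was highest in border macrophage-marker cells, with 141 (107 to 182) and 131 (59.8 to 248). Next came classical monocyte-marker cells, where Cd36 held 0 and 2 UMIs, with 74.8 (52.1 to 104) and 41.4 (37.6 to 45.4). Msr1 had a UMI in 48.8% and 26.2% of the classical monocyte-marker cells, against 0.862% and 0.884% of neutrophils. Nonclassical monocyte-marker cells held 5 and 4 UMIs. Among monocyte-marker cells, the 2 scavenger receptors peaked in different groups. Msr1 (ENSMUSG00000025044) is at chr8:39581685-39642673 on the minus strand.

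Cd68 was found in 85.8% of Disc1 WT/WT against 87.5% of Disc1 LI/LI microglia, at 566 (558 to 575) and 670 (652 to 687) CPM. Border macrophage-marker cells lay above microglia, at 787 and 915, a log2 ratio of 0.47 (0.31 to 0.63) and 0.45 (0.07 to 0.81). Nonclassical monocyte-marker cells followed with 478 and 397, and classical monocyte-marker cells with 195 and 276. In neutrophils, 97.4 in Disc1 WT/WT equalled the 97.6 of the microglial genes' proportion within counting error, while 46.2 in Disc1 LI/LI was above the 20.5 of that proportion. Cd68 (ENSMUSG00000018774) is a short gene at chr11:69664213-69666153, minus strand.

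Sirpa and Cd47, the receptor and its ligand, differed in where they were found. Sirpa stood at 608 CPM in Disc1 WT/WT microglia and 440 in Disc1 LI/LI microglia, and in neutrophils at 255 and 101. The microglial genes' proportion would give 105 and 13.5, under the measured neutrophil levels in both libraries. Neutrophils with under 1% of UMIs from granule genes had 322 (249 to 411) and 173 (162 to 185), and those with more had 226 (185 to 273) and 76.6 (72.4 to 80.9). Sirpa (ENSMUSG00000037902) lies at chr2:129592835-129632228 on the plus strand.

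Cd47 was the most evenly spread of the 9 genes across the 3 classes. Microglia had 328 and 274 CPM, neutrophils 337 and 308, and other cells 366 and 480. The microglial genes' proportion would give 56.6 and 8.40 in neutrophils. NK-marker cells had 723 (528 to 968) in 15 Disc1 WT/WT cells and 797 (684 to 924) in 59 Disc1 LI/LI cells, and nonclassical monocyte-marker cells 845 (698 to 1015) and 595 (503 to 700). Within neutrophils, Cd47 ran opposite to Sirpa. Cells with at least 1% of UMIs from granule genes, which mark less mature neutrophils, had 413 and 332, and the others 164 and 234. Cd47 (ENSMUSG00000055447) is at chr16:49800533-49915010 on the plus strand.

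**Figure D3:**
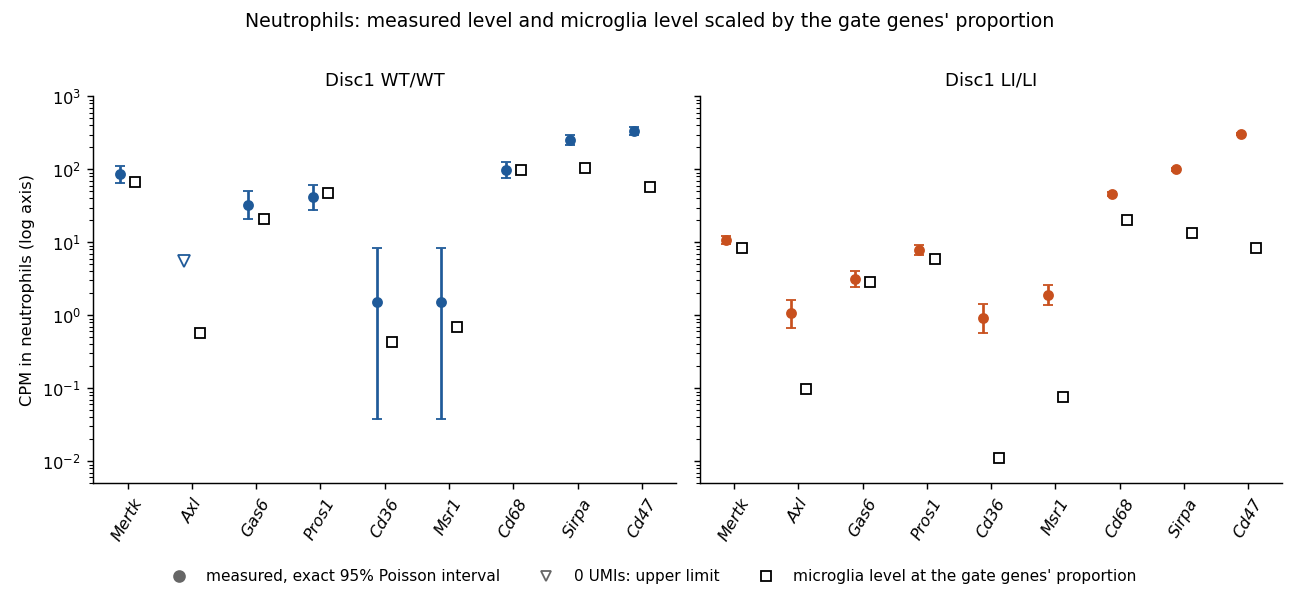
Level of each gene in neutrophils of Disc1 WT/WT (left) and Disc1 LI/LI (right), in CPM on a log axis. Filled circles are measured levels with exact 95% Poisson intervals, the open triangle is the upper limit for 0 UMIs, and open squares are the microglial level multiplied by the proportion at which the 6 microglial genes appear in neutrophils (17.2% and 3.07%). Cd47 and Sirpa lay above the squares in both libraries, and Gas6 lay within its interval in both.

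Between microglia and neutrophils of one library, 6 of the 9 genes were at least 2-fold higher in Disc1 WT/WT microglia, where 49.4% of all 10909 genes with at least 50 UMIs were. They were Mertk, Gas6, Pros1, Cd68, Sirpa and Msr1, the last against a single UMI in neutrophils. In Disc1 LI/LI, 5 of the 7 members with 50 UMIs passed, where 57.9% of 10442 genes did. No member was 2-fold higher in neutrophils, where 9.06% and 13.3% of genes were. The members' shares are thus not far from those of all genes. For Mertk, the log2 ratio of microglia over neutrophils was 2.19 in Disc1 WT/WT against 4.69 in Disc1 LI/LI, and the microglial genes' proportion in neutrophils (17.2% and 3.07%) moved with it. Without cells that carried 3 markers of another list (31.0% and 20.1% of the neutrophils), these ratios were 5.45 and 8.16. This rule drops neutrophils with microglial markers, so larger ratios follow in part from the rule. It also drops 5.24% and 79.6% of the microglia. With scaling by trimmed means the ratios were 1.69 and 3.33.

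Between genotypes, 5 of the well-counted members were lower and 1 was higher in Disc1 LI/LI microglia, all by less than 1.5-fold. The median log2 ratio of all 11087 genes compared was -0.19, so most genes were lower too. Mertk differed by a log2 ratio of -0.50 (-0.56 to -0.43), Pros1 by -0.50 (-0.58 to -0.42), Sirpa by -0.47 (-0.52 to -0.42), Gas6 by -0.37 (-0.49 to -0.26) and Cd47 by -0.26 (-0.33 to -0.19). Cd68 was the exception at 0.24 (0.20 to 0.29). For Axl the ratio was -0.07 (-0.75 to 0.57), on too few UMIs to place it on either side of 0. Past 1.5-fold were Cd36 at -2.78 (-5.09 to -1.18), with 3 UMIs in Disc1 LI/LI, and Msr1 at -0.70 (-1.47 to -0.01). Thus 2 of 9 members were at least 1.5-fold lower and 0 higher, where 18.1% of 11087 genes were lower and 2.94% higher. Cd36 and Msr1 in Disc1 WT/WT microglia lay largely or partly (85.1% and 36.8% of UMIs) in cells with markers of a type other than microglia and neutrophils. In Disc1 LI/LI microglia these shares were 66.7% of 3 UMIs and 45% of 20 UMIs.

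**Figure D4:**
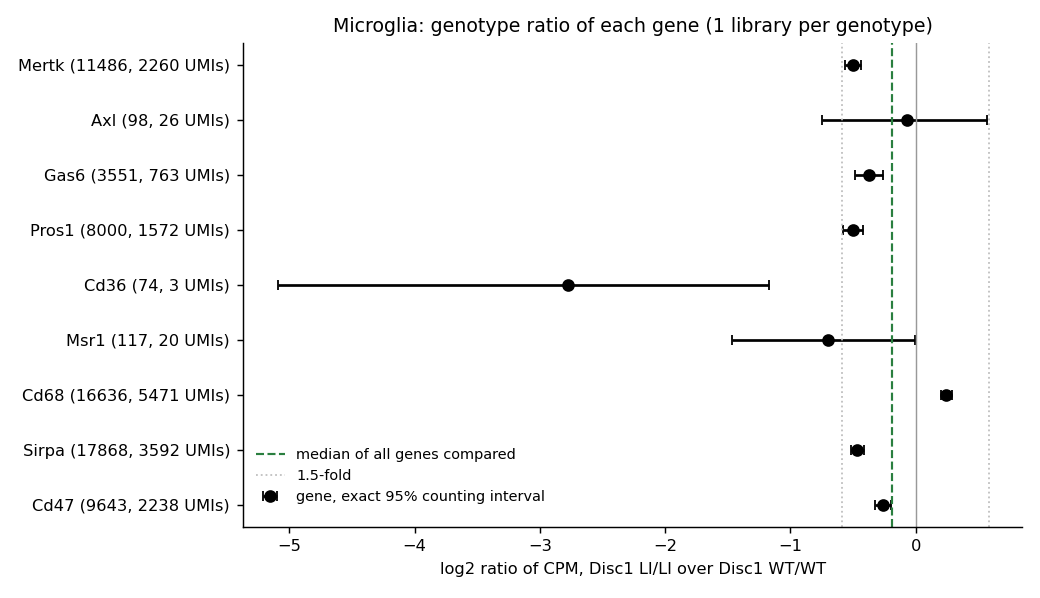
Log2 ratio of CPM in microglia, Disc1 LI/LI over Disc1 WT/WT, for each gene, with its UMIs in Disc1 WT/WT and then Disc1 LI/LI beside its name. Points carry exact 95% counting intervals, the dashed line is the median of all 11087 genes (-0.19) and dotted lines mark 1.5-fold. Cd68 lies right of 0 at 0.24, and Mertk, Pros1, Sirpa and Gas6 lie left of the dashed line.

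These ratios are to be read against the median of all genes, which was -0.19, and against gene length, which moved with the ratio. The 200 genes nearest to Mertk in genomic length had a median of -0.49, and those nearest to Pros1 -0.41. For the shorter Sirpa and Gas6 the medians were -0.31 and -0.23, and Cd47, a long gene, lay above its neighbours' -0.51. The genes nearest in length to Cd68 had a median of 0.15. The part of length in these differences was not tested. Near the edge of the microglial gate the level of Mertk was lower too. It stood at 255 and 194 in cells with 0.5 to under 0.75% of UMIs from the microglial genes, and at 165 and 133 just outside, at 0.25 to under 0.5%. In Disc1 WT/WT, cells just inside the gate lay above all microglia for Gas6 (142 against 121), Cd68 (595 against 566), Axl (16.1 against 3.33), Cd36 (12.5 against 2.52) and Msr1 (11.7 against 3.98).

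In neutrophils, 6 members had 50 UMIs over both libraries, and 5 of them were at least 1.5-fold lower in Disc1 LI/LI, where 38.5% of 8769 genes were lower and 11.7% higher. Mertk (-3.00), Gas6 (-3.39) and Pros1 (-2.42) showed the largest log2 ratios. For these 3, the interval of the Disc1 WT/WT level held the microglial genes' proportion, which was 17.2% there and 3.07% in Disc1 LI/LI. Cd68 (-1.08) was lower as well, also from a Disc1 WT/WT level at that proportion (97.4 against 97.6), and its ratio was -0.0082 without cells that carried 3 markers of another list and -0.16 with TMM scaling. Sirpa had -1.34, and Cd47 differed by -0.13. Scaling by trimmed means (TMM) moved all neutrophil ratios by 0.92 and turned the balance over all genes, from 23.3% higher among those past 1.5-fold to 85.3%. Cd47 then became higher, at 0.78. The 116 Disc1 WT/WT neutrophils limit these comparisons.

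In the other cells, 8 of 9 members were at least 1.5-fold lower in Disc1 LI/LI, against 35.6% of 10543 genes, and 0 were higher, against 13.3%. With TMM scaling, which moved ratios by 0.48, the higher share among all genes past 1.5-fold went from 27.1% to 64.0%. This class changed its make-up between libraries, and the part of that in the differences was not tested. Within marker-defined groups some differences were of another size or sign, and others stayed on the same side. Cd68 had a log2 ratio of -0.76 over all other cells, but of 0.50 (0.20 to 0.82) within classical monocyte-marker cells and 0.22 (-0.20 to 0.61) within border macrophage-marker cells. Sirpa had -1.21 over all other cells, but 0.11 (-0.33 to 0.59) and 0.01 (-0.72 to 0.66) in these groups. Msr1 was lower in classical monocyte-marker cells, at -0.86 (-1.35 to -0.31), as was Cd36 in nonclassical monocyte-marker cells, at -0.77 (-1.30 to -0.23). For Cd47 the classical monocyte-marker cells showed -0.03 (-0.22 to 0.17). Mertk at -1.5 (-2.62 to -0.11), on 7 Disc1 WT/WT UMIs, and Pros1 at -1.4 (-2.06 to -0.61) stayed lower in classical monocyte-marker cells. The 6 microglial genes made up 0.0509% of UMIs in these cells in Disc1 WT/WT against 0.0185% in Disc1 LI/LI. Their part in the 2 ratios was not tested. Cd68 (-0.37) and Sirpa (-0.95) stayed lower in MHC class II-marker cells.

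MHC class II-marker cells were of nearly equal number in both libraries, but differed in every member beyond counting error. The share of all genes that differed was not computed for this group. Over other cells as a whole, 35.6% of 10543 genes were at least 1.5-fold lower in Disc1 LI/LI and 13.3% higher. Cd36 stood at 148 in Disc1 WT/WT against 16.1 in Disc1 LI/LI (-3.20, -3.83 to -2.62), and Axl at 91.3 and 32.7 (-1.48, -1.97 to -1.01). Msr1 (-3.06), Pros1 (-2.72), Gas6 (-2.18), Mertk (-1.50), Sirpa (-0.95) and Cd68 (-0.37) were lower in Disc1 LI/LI too. Only Cd47 was higher in Disc1 LI/LI, at 525 against 366 (0.52, 0.36 to 0.69). The cells themselves were not alike, since their median number of classical monocyte markers was 1 in Disc1 WT/WT against 3 in Disc1 LI/LI, and that of microglial markers 6 and 3. The part of these other markers in the differences was not tested.

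Among microglia, cells with genes of known states were compared with microglia of the same library that held none of the genes. Disease-associated genes (Itgax, Cst7, Lpl, Spp1 and others, 7 of 8 found in the data, at least 2 per cell) marked 80 cells of Disc1 WT/WT, with a median of 7390 UMIs against 4206 in cells without them, and 12 of Disc1 LI/LI (3934 against 3748). Axl stood at 34.5 CPM in the 80 cells and at 2.07 in the 5579 without these genes, a log2 ratio of 4.06 (3.29 to 4.79). Of these 80 cells, 18 carried at least 3 markers of a type other than microglia and neutrophils, and without them Axl stood at 26.5. Cd68 was also higher, at 815 against 552 in Disc1 WT/WT (0.56, 0.44 to 0.69) and 1206 against 659 in Disc1 LI/LI (0.87, 0.49 to 1.23). Mertk was lower, at 303 against 395 in Disc1 WT/WT (-0.38, -0.59 to -0.18) and 132 against 281 in Disc1 LI/LI (-1.09, -2.41 to -0.05). The 12 Disc1 LI/LI cells held 0 UMIs of Axl, where 3 UMIs would be 56.5 CPM, so that no difference from the 2.59 CPM of cells without these genes was detectable. Cd36 stood at 34.5 in the 80 cells and at 10.2 with the 18 left out.

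Cells with at least 3 of 8 interferon-response genes numbered 52 in Disc1 WT/WT against 19 in Disc1 LI/LI. Axl was higher in them in both libraries, at 18.7 against 2.65 (2.82, 1.33 to 4.02) and 26.8 against 2.66 (3.34, 0.94 to 5.10), though on only 6 and 3 UMIs. Of these cells, 9 and 4 carried at least 3 markers of a type other than microglia and neutrophils, and without them Axl stood at 16.3 and 14.1. These values rest on still fewer UMIs. The 14.1 lies under the 26.8 CPM that 3 UMIs make in the 19 cells, so no higher Axl is shown there without the 4 cells. Cd47 was higher too, at 424 against 326 (0.38, 0.13 to 0.63) and 393 against 267 (0.56, 0.09 to 0.99). The ratio for Mertk was 0.10 (-0.16 to 0.34) in Disc1 WT/WT and -0.63 (-1.35 to -0.0029) in the 19 cells of Disc1 LI/LI, where 179 stood against 277. Sirpa stood at 214 against 452 in Disc1 LI/LI (-1.08, -1.72 to -0.50) and at 609 against 612 in Disc1 WT/WT. Without the 9 and 4 cells with other markers, Cd47 stood at 451 and 339. In Disc1 LI/LI, Mertk then stood at 240 and Sirpa at 254. Immediate early genes (at least 3 of 6) marked 227 and 96 cells. In them the log2 ratio of Mertk was 0.01 (-0.11 to 0.12) and -0.03 (-0.29 to 0.21), and that of Sirpa -0.22 (-0.32 to -0.12) and -0.37 (-0.59 to -0.16). Axl was higher in these cells too, at 8.09 against 2.84 (1.5, 0.51 to 2.4) and 8.95 against 1.30 (2.8, 0.73 to 4.8), on 13 and 5 UMIs. Leaving out 27 and 15 cells with other markers gave 5.19 and 4.85. The 4.85 lies under the 5.37 CPM that 3 UMIs make in the 96 cells. Higher Axl was thus not particular to 1 state.

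**Figure D5:**
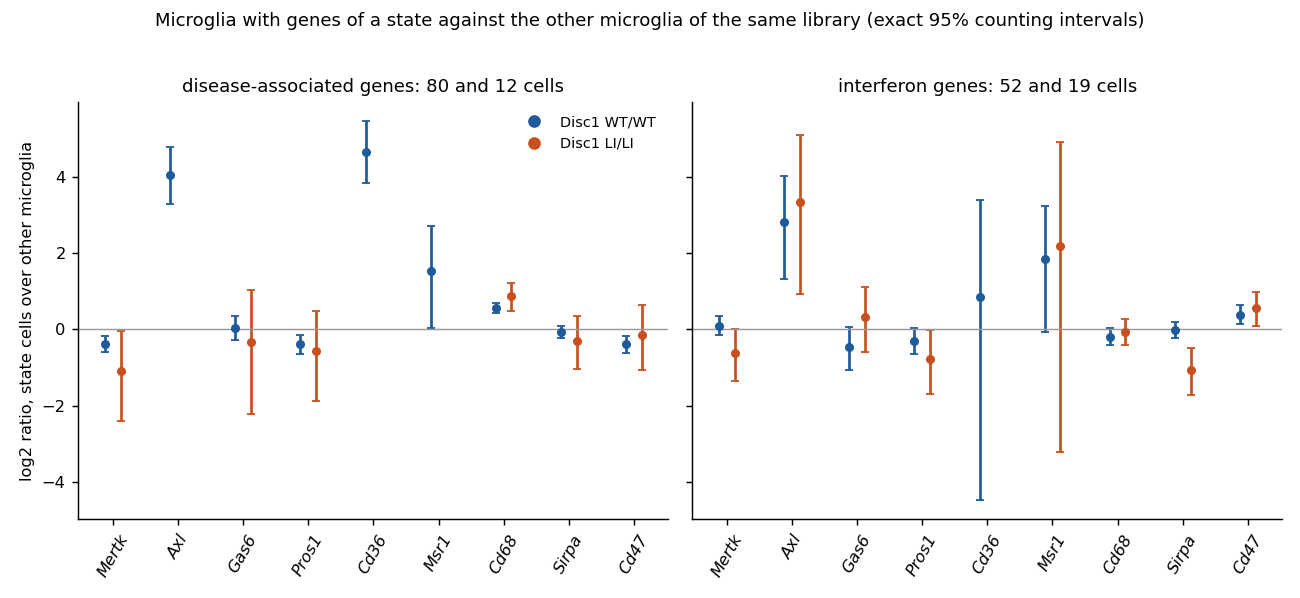
Log2 ratio of each gene in microglia with disease-associated genes (left) or interferon-response genes (right) over microglia without them, within the Disc1 WT/WT (blue) and the Disc1 LI/LI (orange) library, with exact 95% counting intervals. Genes with 0 UMIs in the state cells are left out. Axl lies at 4.06 and 2.82 in Disc1 WT/WT, and Cd68 lies above 0 in both libraries on the left.

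Receptor and ligand were not found in separate microglia. In Disc1 WT/WT microglia thinned to 1000 UMIs, Gas6 was seen in 11.5% (10.1 to 13) of cells with a Mertk UMI and in 11.2% (10.2 to 12.2) of those without. For Pros1 the shares were 23.5% and 23.9%. Cd47 was seen in 28.5% of cells with Sirpa and in 28.4% of those without. In Disc1 LI/LI, the same shares were 8.82% and 9.47% for Gas6, 17.0% and 17.6% for Pros1, and 23.0% and 23.5% for Cd47, with overlapping intervals for each pair. At this depth the cells with and without a UMI of one gene were not distinguishable in the other.

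Across 16 points (8 cell groups in each of 2 libraries, among 5531 genes), the 3 genes most like each member were listed by the Pearson correlation of log2 levels. Border macrophage-marker cells, the group with the highest Gas6, Msr1 and Cd68, are not among the points, since Disc1 LI/LI had under 20 of them. The points share libraries and cell groups, so the values are a description. Axl was nearest to the MHC class II genes H2-Eb1 (0.93), H2-Aa (0.91) and H2-Ab1 (0.88), which also helped to define one of the groups. Gas6 was nearest to Rab6b (0.96) and the complement genes C1qc (0.95) and C1qa (0.95). For Mertk these genes included Arhgap5 (0.98) and Sgce (0.98), and for Pros1 they were Ivns1abp (0.98), Cyfip1 (0.98) and Tpp1 (0.97). Cd68 was nearest to Laptm4a (0.97), a lysosomal membrane protein, Gusb (0.95), a lysosomal enzyme, and Il10ra (0.95). Cd36 was nearest to Pparg (0.91), Bcl2a1d (0.89) and Itgax (0.88), Msr1 to Capn2 (0.87), Ms4a4a (0.87) and Ifi204 (0.86), Sirpa to Csnk1e (0.95), Nckap1l (0.93) and Tmbim6 (0.92), and Cd47 to Myo1g (0.93), Bak1 (0.92) and Hlcs (0.86).

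Other genes of the engulfment pathway were followed in microglia through 5 lists. Of all 11087 genes compared there, 18.1% were at least 1.5-fold lower and 2.94% higher in Disc1 LI/LI. Of 16 further phosphatidylserine receptors and bridges, 10 had at least 50 UMIs, 1 was at least 1.5-fold higher in Disc1 LI/LI and 0 lower, with a median log2 ratio of -0.08 against -0.19 for all genes. Trem2, a lipid receptor of microglia, had 2418 and 2982 CPM (0.30), whereas Havcr2 (Tim-3), a phosphatidylserine receptor, had 383 and 266 (-0.53) and Itgav, an integrin subunit, 117 and 85.7 (-0.45). The gene past 1.5-fold was Cd300lf at 1.40 and 4.41 (1.66), a myeloid receptor that stood at 117 and 105 in neutrophils. Among scavenger receptors, 9 of 10 were found and 6 compared, 3 were lower and 0 higher, with a median of -0.85. Cd163 (-3.07) and Colec12 (-1.48) rested on 4 and 5 UMIs in Disc1 LI/LI, and Stab1 (-0.11) and Scarb1 (0.06) lay near 0.

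Of the engulfment machinery, 11 of 12 genes were compared, 4 were lower and 0 higher, with a median of -0.24. Over all genes, 18.1% were lower and 2.94% higher. Abca1, a lipid exporter, had 370 and 209 (-0.83), and Elmo1, which activates Rac, 443 and 266 (-0.73). At the other end stood Abca7 at 5.99 and 6.49 (0.12) and Rac2 at 136 and 198 (0.54), with Rac2 at 1344 in Disc1 LI/LI neutrophils. In a list drawn up around Cd47 and Sirpa, 2 of 6 were higher and 1 lower, with a median of -0.21. Cd24a and Pecam1, which it also holds, are not partners of either. The higher ones were Cd24a at 0.613 and 11.0 (4.17) and Thbs1 at 2.99 and 11.0 (1.88), which stood at 392 and 873 in Disc1 LI/LI neutrophils. The lower one was Pecam1 (-0.71), and Skap2 had -0.48. In the lysosome membrane list, 1 of 8 was higher and 1 lower, with a median of -0.29. Lgals3, a galectin, had 6.26 and 27.8 (2.15) in microglia, 653 in Disc1 LI/LI neutrophils and 1576 in other cells of that library. Tmem106b (-0.60), Npc1 (-0.47) and Atp6v0d1 (0.20) spanned the rest. The 12 neutrophil markers summed to 185 CPM in Disc1 WT/WT microglia against 1426 in Disc1 LI/LI microglia, with all 12 detected in both, and their part in the higher genes was not tested.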

How the data were processed

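Sorted brain cells were profiled in 1 library each of Disc1 LI/LI and Disc1 WT/WT mice. Deposited values are raw UMI counts per gene and barcode, which the authors made with Cell Ranger (cellranger 6.1.2, per the file headers) and STAR on mm10, without normalization. Which of the kinds of droplet chip held which library is not given in the sources used here. Barcodes under 200 genes or over 10% mitochondrial UMIs were dropped. Doublets were not removed. UMIs were summed per library and cell class and divided by the class total (CPM). Levels carry exact Poisson, shares exact binomial and ratios exact conditional intervals at 95%, for counting error only. Genes with at least 50 UMIs over both sides were compared, by 1.5-fold between genotypes and 2-fold between classes. Gene bounds came from GENCODE on GRCm38, and promoters from RefSeq (GRCm38.p6). Named genes were the members, up to 2 highest and 2 lowest ratios of each pathway list, and the 3 most like genes of each member, of which 1 is not reported here. Members and lists were chosen with earlier results of these data known. Ratios and intervals were tested on simulated data. These were independent Poisson counts, the model of the intervals, with set changes of at least 2-fold. They held no spread between cells or mice, so they show only that the computation works. Alternatives covered gates, depth, scaling, filters and doublet-like cells, with TMM from edgeR 4.0.16 in R 4.3.3. Scripts ran in Python 3.11.15 with matplotlib 3.10.9 for plots, and with pandas 2.3.3, scipy 1.17.1 and numpy 2.4.6.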

Additional observations from a re-analysis of the deposited data

Results flagged for a closer look

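The genotype ratios of 2 members lay on opposite sides of 0 in different cell classes, which put them here, and the difference between classes was not tested. With positive values for a higher level in Disc1 LI/LI, the log2 ratio of Cd68 was 0.24 in microglia, -1.08 in neutrophils and -0.76 in other cells. Cd47 had -0.26 in microglia and 0.39 in other cells. With 1 library per genotype, genotype and library cannot be told apart in these values.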

How the results depend on the processing

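The members' values were recomputed under 17 alternatives, of which leaving out cells with 3 markers of a list other than microglia and neutrophil was added after the data were seen. In microglia, Mertk, Gas6, Pros1, Sirpa and Cd47 were lower and Cd68 higher in Disc1 LI/LI under all 17, with log2 ratios of -0.55 to -0.43 for Mertk and 0.21 to 0.30 for Cd68. The 2 members 1.5-fold lower in microglia became 1 with the microglial genes at 1% or at 0.25% of UMIs, without the 5% of cells with the most UMIs, and without cells with 3 markers of another list under either form of that rule, and 0 with cells thinned to 1000 UMIs or with at least 200 UMIs per gene. The planned form of the marker rule removed 79.6% of Disc1 LI/LI and 5.24% of Disc1 WT/WT microglia. In neutrophils, the 5 lower members became 3 with TMM or 200 UMIs, 2 thinned and 1 under the planned marker rule, and TMM gave 1 higher member there and 1 in other cells. The 0 members higher in neutrophils than in microglia became 2 (planned) and 1 (added) in Disc1 WT/WT under the marker rules. In Disc1 LI/LI they became 1 with TMM or with 20 UMIs. Only Axl and Msr1 reached this call in Disc1 WT/WT, with 0 and 1 neutrophil UMIs before cells were left out. A count of 0 entered these calls as 3 UMIs, so no higher level in neutrophils is shown for them. Msr1 turned to 0.40 in other cells with the microglial genes at 1%, and the cause was not tested. Its Disc1 WT/WT ratio of microglia over neutrophils turned to -0.34 with 10% S100 UMIs. Under the planned and added marker rules this ratio was -1.81 and -0.91. It rests on 1 neutrophil UMI, and where that UMI is left out the count of 0 enters as 3 UMIs. Such a change of sign is therefore no sign of a higher level in neutrophils. Over all genes, the 326 higher in microglia became 214 at the 1% gate, 210 thinned, 582 at 20 UMIs and 121 at 200 UMIs. In neutrophils, the 1023 higher became 4188 with TMM, 590 thinned, 652 without the top 5%, 476 under the added rule and 542 at 200 UMIs, and the 3373 lower became 723, 1480 (thinned), 1996 (planned rule) and 1845 (200 UMIs). In other cells, the 1399 higher became 3415 with TMM and the 3758 lower became 1919, 1516 (thinned) and 2175 (200 UMIs). No paired analysis was possible because each genotype has 1 library and no result comes from a test. Depth limits Axl, Cd36 and Msr1 in microglia, and the 116 Disc1 WT/WT neutrophils and 18 Disc1 LI/LI border macrophage-marker cells limit values there.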
